A study of Mus musculus with 9 samples.

Results

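Endothelial and endocardial genes were followed in Shh KO (Sonic hedgehog knockout) mouse embryos, in a tissue named the posterior second heart field (pSHF). The set holds 34 genes picked by symbol, and each symbol matched 1 row of the authors' full Cuffdiff table of 27198 rows. Polyadenylated RNA of microdissected pSHF, the mesoderm behind the heart tube that feeds the atria and inflow tract, was sequenced at stage E10.5. The groups were 5 Shh KO and 4 Shh WT libraries, both on a mixed strain background. The labels do not name the Shh allele, and they do not say whether libraries came from separate embryos, pools or litters, so the deposited p-values may measure technical spread only. The authors' tables hold 1 pooled estimate per genotype, so no value per library, SD or leave-one-out fit can be given, and the depth of each library is unknown. The authors' shorter table, which alone lists FPKM (fragments per kilobase of transcript, scaled to library size), holds 0 of the 34 genes. Every value of a member is therefore a log2 ratio, Shh KO over Shh WT, and not a level.

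Endothelial cells line all blood vessels, and the endocardium is the endothelial lining of the heart. The identity of both is kept by ETS and SoxF transcription factors. Vascular endothelial growth factor (VEGF) receptors, angiopoietin (Tie) receptors and Notch signals set growth, stability and the split into arteries and veins. Junction proteins such as VE-cadherin hold the lining together. In the embryonic pSHF these cells belong to the vessels and to the lining of the inflow region, next to the mesoderm that receives Hedgehog signals.

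As a check of the genotype, the Shh row read 5.44 FPKM in Shh KO and 15.7 FPKM in Shh WT, and the receptor gene Ptch1 read 11.6 FPKM in Shh KO and 33.8 FPKM in Shh WT, in the authors' deposited table. The Shh row overlaps 9530036O11Rik, so its reads may not all be from Shh. All 4 tested Hedgehog genes of a short list (Shh, Ptch1, Gli1 and Hhip) were called lower, with a median log2 ratio of −1.54 in the authors' deposited table. Of all named tested rows, 0.383% were called lower. Of 8 pSHF genes chosen after the values were seen, all 8 were tested by Cuffdiff. Among them the mesodermal factors Osr1 and Foxf1 were called lower, and Osr1 read 33.5 FPKM in Shh KO and 71.4 FPKM in Shh WT in the authors' deposited table. All 34 endothelial genes were tested as well, so transcripts of this lineage were present in the dissected tissue.

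Of the 34 genes, 0 were called between Shh KO and Shh WT tissue at a Cuffdiff q under 0.05. Over the 13048 named tested rows, 1.94% were called in either direction. At so low a share, 0 calls among 34 rows does not set these genes apart. Their median log2 fold change was 0.07, against 0.02 over all named tested rows. The range ran from −0.29 for Tal1 to 0.75 for Lyve1 in the authors' deposited table. The middle of the set, between the lower and upper quartile, spanned −0.08 to 0.24, and that of all named tested rows −0.11 to 0.19. Fold changes were positive for 22 of the 34 and for 54.9% of all named tested rows. At an unadjusted Cuffdiff p under 0.05 there were 3 members, all with a positive fold change. That is 8.82% of the set, and 7.51% of all named tested rows had such a p, 5.83% with a positive fold change. The member share was thus close to the background, and the smallest q of the set was 0.325, for S1pr1, in the authors' deposited table. In bulk tissue, fewer cells of a type and less RNA per cell cannot be told apart.

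A missed call does not show that 2 genotypes are alike, so an approximate 95% interval was derived for each fold change from its deposited p. For 32 of the 34 genes the interval lay inside a 2-fold change either way. For 12 of them it lay inside a 1.5-fold change. The exceptions at 2-fold were Lyve1 and S1pr1, whose intervals reached 2.60-fold and 2.08-fold. Across all named tested rows, 79.6% of intervals lay inside 2-fold and 41.6% inside 1.5-fold. The median standard error of the members was 0.24 log2 units, as it was over all named tested rows. The count rests on how the error is read: with the Cuffdiff statistic taken as a normal deviate, 5 of the 34 intervals lay inside 2-fold.

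**Figure D1:**
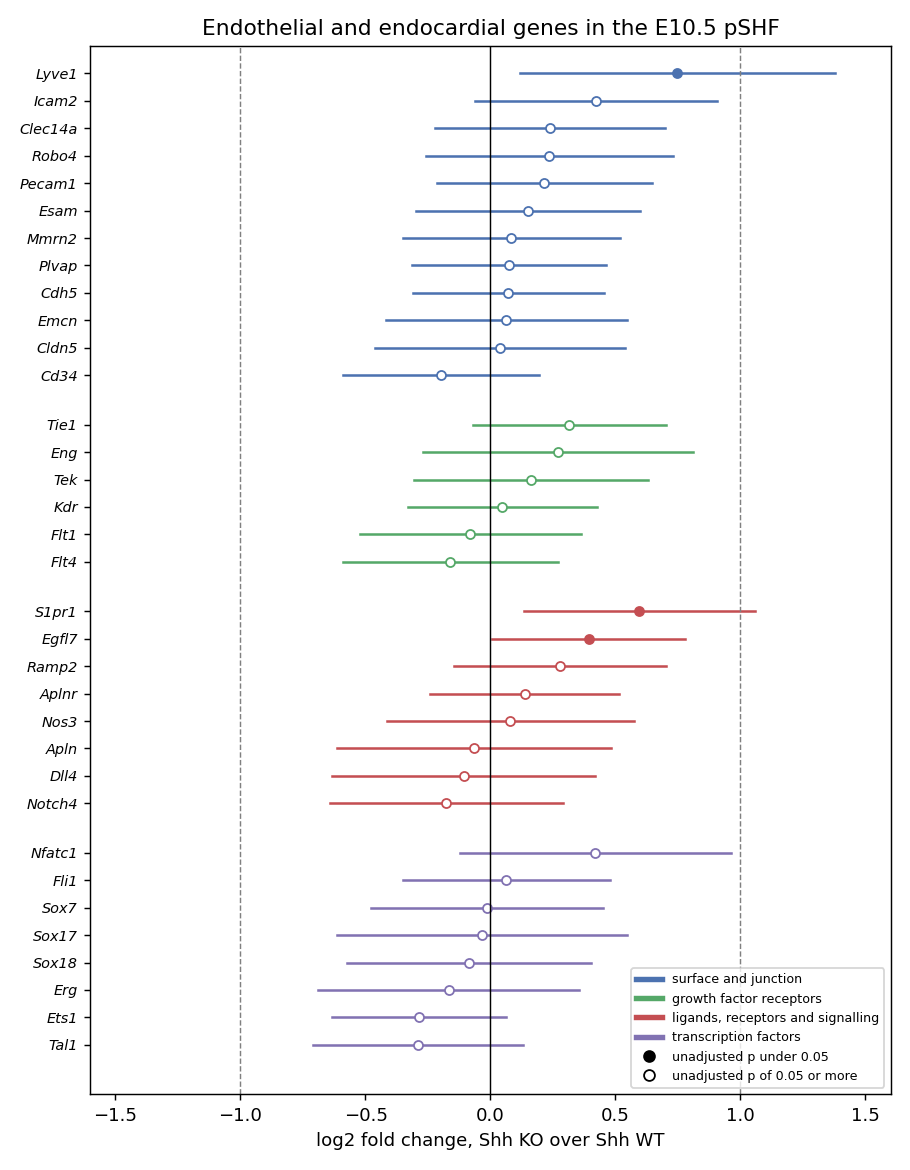
Log2 fold change, Shh KO over Shh WT, of the 34 genes in 4 role groups, each point with an approximate 95% interval derived from the deposited Cuffdiff p. Filled points mark the 3 genes with an unadjusted p under 0.05 (Lyve1, S1pr1, Egfl7), dashed lines mark a 2-fold change, and 32 intervals lie between them.

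**Figure D2:**
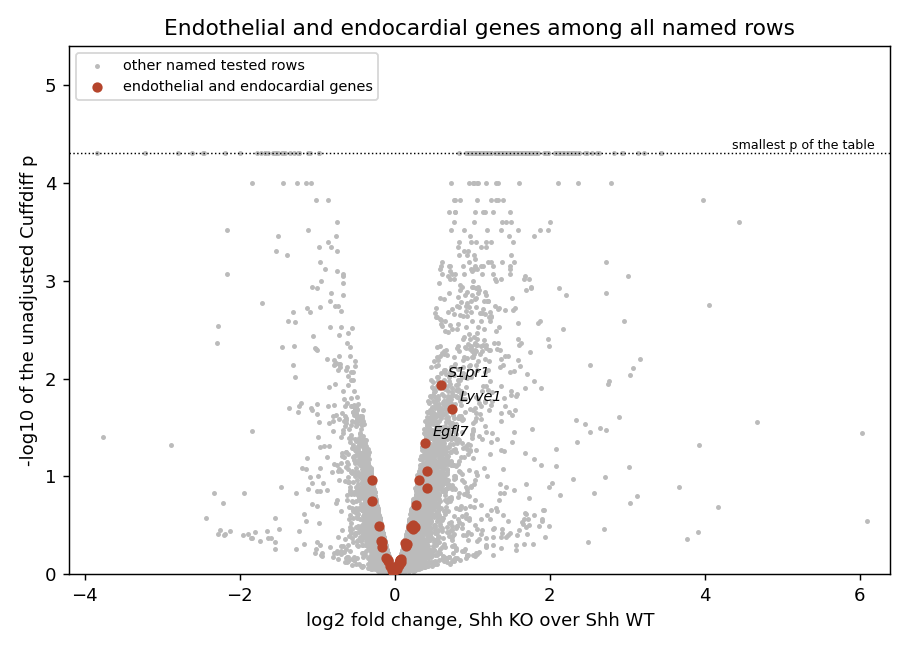
Each point is 1 of 13048 named tested rows, with the log2 fold change on the horizontal axis and −log10 of the unadjusted Cuffdiff p on the vertical axis. The 34 endothelial and endocardial genes, in red, sit low in the centre, with none near the dotted line of the smallest p in the table.

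Surface and junction proteins of the endothelium formed the largest role group, with 12 genes. The group held 0 calls, and 1.94% of all named tested rows were called. The core markers of the lining stood near 0. Cdh5, which encodes VE-cadherin, had a log2 ratio of 0.07 in the authors' deposited table (95% interval −0.31 to 0.45). Cldn5, a tight junction claudin, had 0.04 there (deposited log2 fold change, 95% interval −0.46 to 0.54). Pecam1, the adhesion molecule CD31, had 0.22 in the authors' deposited table (95% interval −0.21 to 0.65). Each of these intervals crosses 0, and the highest upper bound of the 3, that of Pecam1, is 1.56-fold.

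The fenestral diaphragm protein gene Plvap (0.07) and the sialomucin gene Emcn (0.06) had similar log2 fold changes in the authors' deposited table. Mmrn2, a matrix protein that binds the lectin encoded by Clec14a, had a deposited log2 fold change of 0.08 in the authors' table, and Clec14a itself 0.24. The adhesion genes Esam (0.15) and Icam2 (0.42) and the guidance receptor gene Robo4 (0.24) also had positive log2 fold changes in the authors' deposited table. Icam2, on chromosome 11 (106377656 to 106382641, mm10), came close to the unadjusted threshold, with p = 0.0874 by Cuffdiff in the authors' deposited table and an interval of −0.06 to 0.91. Cd34, a sialomucin also carried by blood progenitors, was the only member of the group below 0, at −0.20 in the authors' deposited table (95% interval −0.59 to 0.19). The group's median log2 fold change was 0.12, with 11 of 12 values positive. The interval of Lyve1 was the only one of the 12 that left 0 out.

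Lyve1 encodes a hyaluronan receptor of lymphatic vessels that is also carried by liver sinusoids and by some macrophages. It had the highest value of the 34, a log2 ratio of 0.75 in the authors' deposited table (Cuffdiff p = 0.0203, q = 0.462), or 1.68-fold, with an interval of 1.08-fold to 2.60-fold. Its row spans 110850607 to 110862953 on chromosome 7 (mm10). Of 9 tested macrophage markers, 4 were called higher (1.56% of all named tested rows were), and the median log2 fold change of the 9 was 1.12. The summed FPKM of the 4 called macrophage genes was 55.1 in Shh KO and 19.3 in Shh WT in the authors' deposited table. Of the liver sinusoid list, 4 of 9 rows were tested, Lyve1 among them, and 2 were called higher. The part of these cells in the Lyve1 value was not tested.

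The receptors of vascular growth factors gave 0 calls among 6 (1.94% of all named tested rows were called), and every interval lay inside 2-fold. Kdr, the main signalling VEGF receptor, had a log2 ratio of 0.05 in the authors' deposited table (95% interval −0.33 to 0.43). Flt1, the decoy VEGF receptor, had −0.08 there (deposited log2 fold change, 95% interval −0.52 to 0.36). Flt4, the receptor of VEGF-C on lymphatic and early venous endothelium, had −0.16 in the authors' deposited table (95% interval −0.59 to 0.27). The 3 VEGF receptor genes did not separate from one another, since each value lay inside the intervals of the other two.

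Both Tie receptors had positive fold changes without a call. Tek, the angiopoietin receptor Tie2, had a log2 ratio of 0.16 in the authors' deposited table. Its partner Tie1, an orphan receptor, had 0.31, with p = 0.110 by Cuffdiff in the authors' deposited table and an interval of −0.07 to 0.70. Eng, the co-receptor endoglin for BMP and TGF-beta ligands, had a log2 ratio of 0.27 in the authors' deposited table. The Eng row overlaps that of Fpgs, and the sources used here do not say whether counting used strand, so reads of the 2 genes may not be separable. The group's median was 0.11.

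Transcription factors of endothelial identity were the one role group with a median below 0, at −0.06, and 6 of its 8 values were negative. None was called (1.94% of all named tested rows were) and none had an unadjusted Cuffdiff p under 0.05 (7.51% did). The SoxF genes, which act redundantly in vessel growth and arterial identity, lay close together. Their log2 fold changes were −0.01 for Sox7, −0.03 for Sox17 and −0.09 for Sox18 in the authors' deposited table. The widest of these 3 intervals, that of Sox17, ran from −0.61 to 0.55.

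ETS factors, which bind endothelial enhancers, varied more. Ets1 had a log2 ratio of −0.29 in the authors' deposited table (Cuffdiff p = 0.109), with an interval of −0.63 to 0.06. Ets1 is also transcribed in neural crest and other mesenchyme. Erg stood at −0.17 and Fli1 at 0.06 (log2 fold changes) in the authors' deposited table. Tal1, a factor of blood and early endothelial progenitors on chromosome 4 (115059527 to 115071755, mm10), had the lowest value of the 34, −0.29 in the authors' deposited table (Cuffdiff p = 0.177, interval −0.71 to 0.13). Erythroid markers, whose cells also carry Tal1, had a median of −0.16 over 14 tested rows. Among the 14, 0 were called by Cuffdiff and 0 had an unadjusted p under 0.05 (1.94% and 7.51% of all named tested rows). The part of erythroid cells in the Tal1 value was not tested.

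Nfatc1, the factor that marks the endocardium and acts in valve formation, had the highest value of the 8. Its log2 fold change was 0.42 in the authors' deposited table (Cuffdiff p = 0.130), 1.34-fold, with an interval of 0.92-fold to 1.95-fold that crosses no change. The row lies on chromosome 18 (80606205 to 80713071, mm10). Another gene known from the endocardium, Npr3, a clearance receptor for natriuretic peptides, had −0.46 as a log2 ratio in the authors' deposited table (Cuffdiff p = 0.0266, q = 0.538). Neither was called, and the Nfatc1 interval allows either sign, so the 2 values do not show opposite changes. Npr3 belongs to a list of 15 cushion genes, of which 9 had positive and 6 negative fold changes.

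Signalling genes of the vessel wall held 2 of the 3 members with an unadjusted Cuffdiff p under 0.05. S1pr1, the sphingosine 1-phosphate receptor that restrains sprouting, had a log2 ratio of 0.60 in the authors' deposited table (Cuffdiff p = 0.0116, q = 0.325). That is 1.51-fold, with an interval of 1.10-fold to 2.08-fold, for a row on chromosome 3 (115710433 to 115715055, mm10). S1pr1 is also transcribed in blood cells and in other embryonic tissues. Egfl7, a secreted matrix protein of endothelial cells, had 0.39 as a log2 ratio in the authors' deposited table (Cuffdiff p = 0.0456, q = 0.713). In fold terms it was 1.31, with an interval of 1.01 to 1.71.

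The Egfl7 row is named for Mir126 as well, because an intron of Egfl7 carries the endothelial microRNA gene, called Mir126a in RefSeq. The RNA was selected for poly(A) tails and read as 50 bp fragments, so the row reports the host transcript and not mature microRNA. Mature sequences of 3 arms at the locus (RefSeq, GRCm38.p6, chromosome 2) are shown, without mmu-miR-126a-5p, because miR-126 is the regulatory product of this row. Capitals mark the seed, bases 2 to 8, and the Mir126b gene lies on the opposite strand over the same hairpin. No seed is shared among the 3 arms printed.
mmu-miR-126a-3p (+ strand, 26591402 to 26591423): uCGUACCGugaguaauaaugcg
mmu-miR-126b-3p (− strand, 26591363 to 26591385): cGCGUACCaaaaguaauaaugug
mmu-miR-126b-5p (− strand, 26591399 to 26591420): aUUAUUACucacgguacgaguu

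Of the 3 genes with an unadjusted p under 0.05, Egfl7 is the one with start-site windows in the RefSeq promoter table (250 bases before to 50 after a start). Windows were found for 17 of the 34 genes, 22 windows in all. The ETS letters CCGGAAG or CAGGAAG, on either strand, occurred in 8 of these 22 windows (36.4%) and in 20.9% of all 32851 windows. The genes were Apln, Cd34, Egfl7, Emcn, Erg, Notch4 and Robo4. The GLI letters GACCACCCA, known from Hedgehog response elements, occurred in 0 of the 22 windows and in 0.253% of all windows, either strand. Their inner part, ACCACCC, occurred in 1 of the 22, that of Robo4, and in 4.61% of all windows. Such letters are a description of these windows and not binding sites. The Egfl7 windows with ETS letters are printed with the matches in capitals (GRCm38.p6, + strand).
Egfl7 first start, chr2:26580833-26581132: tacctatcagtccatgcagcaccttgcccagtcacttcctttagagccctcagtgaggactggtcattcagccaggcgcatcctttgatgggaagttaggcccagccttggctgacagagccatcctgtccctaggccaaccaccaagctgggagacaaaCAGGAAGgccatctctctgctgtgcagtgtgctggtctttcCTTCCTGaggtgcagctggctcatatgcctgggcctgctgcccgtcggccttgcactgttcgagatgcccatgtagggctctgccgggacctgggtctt
Egfl7 next start, chr2:26583615-26583914: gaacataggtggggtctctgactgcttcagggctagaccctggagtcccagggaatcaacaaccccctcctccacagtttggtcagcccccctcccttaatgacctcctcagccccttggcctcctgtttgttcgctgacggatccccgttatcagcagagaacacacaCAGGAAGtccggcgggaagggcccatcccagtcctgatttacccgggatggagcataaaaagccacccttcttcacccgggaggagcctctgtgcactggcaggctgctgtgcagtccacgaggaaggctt

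The remaining signalling genes stood nearer to 0. Ramp2, which turns the receptor encoded by Calcrl into an adrenomedullin receptor, had a log2 ratio of 0.28 in the authors' deposited table. Aplnr, the apelin receptor of venous and progenitor endothelium, had 0.14 there (deposited log2 fold change), and its ligand gene Apln, a tip cell gene, had −0.06. Nos3, the endothelial nitric oxide synthase, had 0.08 in the authors' deposited table, in a row that overlaps Atg9b. The Notch pair was slightly negative, with log2 fold changes of −0.11 for the arterial ligand Dll4 and −0.18 for the receptor Notch4 in the authors' deposited table. Rows of Dll4 and Cd34 overlap Gm14207 and Gm16897. All intervals of these members crossed 0.

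Genes linked to vessels were read from lists of ligands, co-receptors, further endothelial genes, cushion, mural, lymphatic and liver sinusoid genes. Not all of these genes are endothelial or come from the vessels of the dissected tissue. The lists hold 90 tested rows that are not members. Of these, 6 were called higher (6.67%, against 1.56% of all named tested rows) and 1 lower (1.11%, against 0.383%). The calls lay in the lists of ligands, cushion, mural cells and liver sinusoid. These lists were drawn up with earlier results of the same data known, so their shares are descriptions.

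Among 21 further endothelial genes tested, 0 were called (1.94% of all named tested rows were), with a median log2 fold change of 0.09. An unadjusted Cuffdiff p under 0.05 was found for 2 of the 21 and for 7.51% of all named tested rows. Those 2 were Etv2, the ETS factor that starts endothelial fate, at −1.29 (q = 0.171), and Hhex, a homeobox factor of endothelium and liver bud, at 0.64 (q = 0.42), in the authors' deposited table. Vwf (0.30), Ecscr (0.19), Lmo2 (0.04), Gata2 (0.04) and Bcl6b (−0.02) lacked a call in the authors' deposited table (log2 ratios).

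Co-receptors and effectors gave 0 calls among 18 (1.94% of all named tested rows were called), with a median of 0.14. The Nrp1 row, shared with Mir1903, had a log2 interval of −1.82 to 2.25, so a large change either way is not excluded for it. Hey2, a Notch target of arteries and ventricular muscle, had the only unadjusted Cuffdiff p under 0.05, at a log2 ratio of 0.86 in the authors' deposited table (q = 0.082). Apart from Hey2, genes of arterial identity, Efnb2 (−0.09), Notch1 (0.15) and Hey1 (0.14), and of venous identity, Ephb4 (0.02) and Nr2f2 (0.06), had small log2 fold changes in the authors' deposited table. None of the arterial or venous genes named here was called, which does not show that either identity was unchanged.

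Of 16 tested vascular ligands, 2 were called higher (1.56% of all named tested rows were) and 0 lower. Of the 16, 6 had an unadjusted Cuffdiff p under 0.05 (7.51% of all named tested rows did). Gdf2, which encodes the circulating endothelial ligand BMP9 made by liver, had 2.82 FPKM in Shh KO and 1.08 FPKM in Shh WT in the authors' deposited table (Cuffdiff q = 0.0235, log2 fold change 1.38). Adm, adrenomedullin, had 10.6 FPKM in Shh KO and 5.16 FPKM in Shh WT in the authors' deposited table (Cuffdiff q = 0.0454). The receptor parts for Adm, Ramp2 (0.28) and Calcrl (0.27), and the receptor parts for Gdf2, Eng (0.27) and Acvrl1 (−0.28), lacked a call in the authors' deposited table (log2 ratios). Vegfa had a log2 fold change of 0.44 (Cuffdiff p = 0.022, q = 0.48) and its relative Pgf −0.72 (p = 0.00715, q = 0.23) in the authors' deposited table. Jag1, a Notch ligand, had −0.66 (Cuffdiff q = 0.0599) and the guidance ligand Slit3 −0.44 (q = 0.703) in the authors' deposited table.

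Endocardial cushion genes gave 1 call among 15 (1.94% of all named tested rows were called), with a median of 0.19. Postn, periostin of cushion and other mesenchyme, had 14.9 FPKM in Shh KO and 3.88 FPKM in Shh WT in the authors' deposited table (Cuffdiff q = 0.00554). Has2, the hyaluronan synthase of the cushions (−0.52, Cuffdiff q = 0.444), and Tbx20 (0.46, q = 0.553) had an unadjusted p under 0.05 in the authors' deposited table, as did Npr3. Mural cell genes, for pericytes and smooth muscle, gave 1 call higher and 1 lower among 13 tested rows (median 0.46). Cnn1 counts there with more than 1 row over the same span, which overlaps many other genes (standard errors 0.90 and 2.07). The Tagln row overlaps Bace1, Pcsk7 and Rnf214. Of all named tested rows, 1.56% were called higher and 0.383% lower. Rgs5, a regulator of G protein signalling in pericytes, fell to 2.11 FPKM in Shh KO, against 5.99 FPKM in Shh WT, in the authors' deposited table (Cuffdiff q = 0.00554). Acta2, smooth muscle actin and an early cardiac gene, had 92.0 FPKM in Shh KO and 56.5 FPKM in Shh WT in the authors' deposited table (Cuffdiff q = 0.0176). Anpep (0.81), Des (0.60) and Tbx18 (0.46) had an unadjusted p under 0.05 without a call (deposited log2 fold changes, authors' table), while Pdgfrb (−0.17) and Notch3 (−0.19) did not. In the same libraries 10 of 11 tested cardiomyocyte rows were called higher, with a median of 1.32, and their part in the mural values was not tested.

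**Figure D3:**
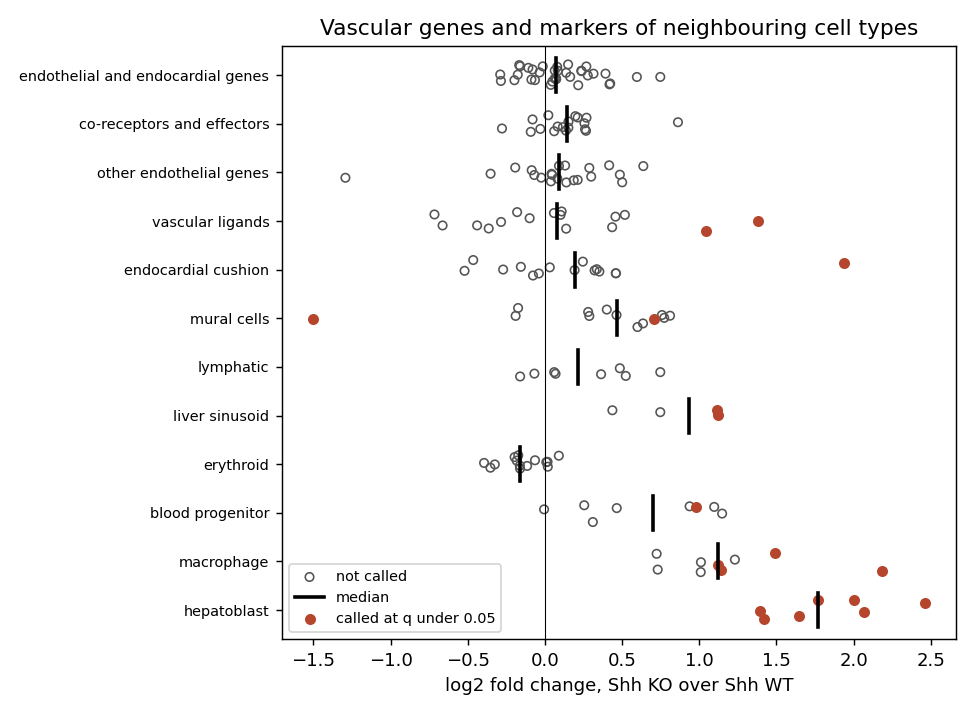
Log2 fold change, Shh KO over Shh WT, of each tested row in the gene lists named on the vertical axis, with filled points for rows called at a Cuffdiff q under 0.05 and a bar for the median. The endothelial set and the co-receptor, other endothelial, lymphatic and erythroid lists hold 0 calls, with medians of 0.07, 0.14, 0.09, 0.22 and −0.16. Among all named tested rows, 1.94% were called. The macrophage and hepatoblast lists lie to the right with medians of 1.12 and 1.77.

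Of 8 lymphatic genes tested, 0 were called (1.94% of all named tested rows were) and 3 had an unadjusted Cuffdiff p under 0.05 (7.51% did). These were Lyve1, Prox1 (0.52) and Pdpn (0.49) in the authors' deposited table (log2 ratios). Prox1 is also transcribed in hepatoblasts and heart muscle, and Pdpn in mesothelium. Flt4, which lymphatic endothelium also needs, had the opposite sign. Among the tested liver sinusoid rows besides Lyve1, Stab1 had a log2 ratio of 0.44 in the authors' deposited table and was not called. Of the 2 that were called, Oit3 had 10.3 FPKM in Shh KO and 4.72 FPKM in Shh WT in the authors' deposited table (Cuffdiff q = 0.00554). Gpr182, a receptor of sinusoidal and lymphatic endothelium, had 8.99 FPKM in Shh KO and 4.15 FPKM in Shh WT in the authors' deposited table (Cuffdiff q = 0.0327). Hepatoblast genes were called higher in 7 of 7 (1.56% of all named tested rows were), at a median of 1.77. Their summed FPKM was 472 in Shh KO and 132 in Shh WT in the authors' deposited table. They are Afp, Alb, Apoa1, Ttr, Fgb, Hnf4a and Serpina1a. The part of liver tissue in the sinusoid and Gdf2 values was not tested.

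**Figure D4:**
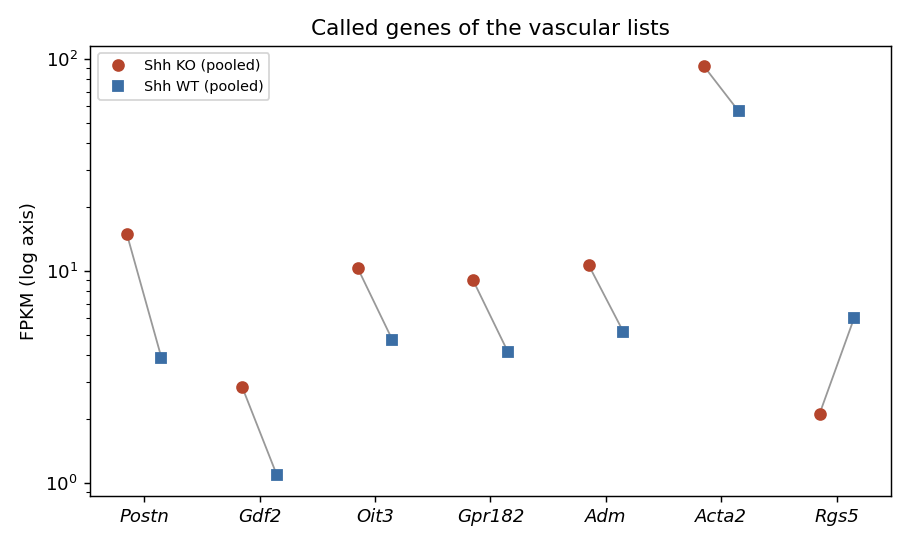
Pooled FPKM (log axis) of the 7 called genes in the vascular lists, circles for Shh KO and squares for Shh WT, with no error because the authors' table gives 1 value per genotype. Rgs5 is lower in Shh KO (2.11 against 5.99), and the other 6 are higher.

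Blood progenitor genes, which share factors with early endothelium, gave 1 call higher among 8 tested (median 0.70), against 1.56% of all named tested rows. Itga2b, an integrin of early haematopoietic cells and megakaryocytes, had 15.1 FPKM in Shh KO and 7.65 FPKM in Shh WT in the authors' deposited table (Cuffdiff q = 0.0268). Runx1 (0.94, Cuffdiff q = 0.101) and Vav1 (1.15, q = 0.126) followed short of a call in the authors' deposited table. Kit (0.31), Lyl1 (0.25) and Gfi1b (−0.01) did not reach an unadjusted p under 0.05 in the authors' deposited table (log2 ratios). The called macrophage genes were Tyrobp, Fcer1g, C1qb and C1qc, and Csf1r, C1qa, Cx3cr1 and Cd68 had an unadjusted Cuffdiff p under 0.05 without a call. The called cardiomyocyte rows were Myl7, Myl4, Actc1, Tnnt2, Tnni3, Nppa, Myl2, Myl3, Actn2 and the row shared by Myh6 and Myh7. Differences between any of these lists and the endothelial set were not tested.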

How the data were processed

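The 34 genes and the lists were chosen with earlier results of these data known. Per the submitters' processing notes, reads were handled with TopHat2 2.0.10 and Cuffdiff 2.1.1, and mm9 is named; the sources used here do not give Cuffdiff options. The authors deposited a Cuffdiff table of 27198 rows (log2 fold changes, a test score, p-values and q-values) and a table of 253 genes with FPKM per genotype and their fold ratio, both per the file headers. The Shh KO value is the numerator of each fold change, since genes with more FPKM in Shh KO, such as Gdf2, had positive values. Log2 fold changes listed in the shorter table match those of the full table within 1.07e-05. Rows with a name, a p under 1 and a numeric fold change (13048) were the background, with calls at q under 0.05 as deposited. Positions are given as mm10, because 99.3% of 20765 symbols, and all 34 members, overlapped their GRCm38 RefSeq gene; 1 was added to starts. In every member row the Cuffdiff score had the opposite sign to the log2 fold change, and only its absolute value was used. The planned interval from the Cuffdiff score was dropped as the main one, because the normal quantile of the deposited p was 2.10 times the score (5th to 95th percentile 1.94 to 2.21). Intervals therefore use the fold change divided by that quantile as the standard error. None was made for genes at the smallest p (5e-05), which is a floor, and such genes count as outside any limit. Interval and adjustment code was tested on simulated normal data, with p-values made by the formula that the interval code inverts. That checks the arithmetic and not whether the formula suits Cuffdiff p-values. Members are all named. Of the vascular and blood progenitor lists, called genes and those with an unadjusted p under 0.05 are named, apart from 1 gene that is not reported here, and a few further genes were named for their known role after their values were seen. Python 3.11.15, pandas 2.3.3, NumPy 2.4.6 and SciPy 1.17.1 were used.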

Additional observations from a re-analysis of the deposited data

How the results depend on the processing

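No paired analysis was possible because the deposited tables hold 1 pooled value per genotype, and leaving out libraries was not run for the same reason. The count of 0 called members was the same at a Cuffdiff q under 0.10, at a q under 0.01, with adjustment over named rows alone, and without the 5 shared or overlapping rows. At an unadjusted p under 0.05 it was 3. The members' median log2 fold change of 0.07 ranged from 0.05 (centred on all named rows) to 0.10 (mean in place of the median), and was 0.08 without 8 members that other cells share. Intervals inside 2-fold numbered 32 from the deposited p and 5 from the unscaled Cuffdiff score. The rescaled score (chosen after seeing the data) also gave 32. Its scale was set from the deposited p, so it is no separate check. Of the vascular list genes that are not members, 6 were called higher, against 2 at a q under 0.01 and 15 at an unadjusted p under 0.05. For lower calls the count was 1, against 2 at a q under 0.10, 7 at an unadjusted p under 0.05, and 2 with adjustment over named rows, where Jag1 joins Rgs5. With 1 FPKM added to both values, log2 fold changes were 0.87 for Gdf2, 1.70 for Postn and −1.17 for Rgs5, all 7 called genes kept their sign, and all reached 1 FPKM in at least one genotype.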
